A study of Mus musculus with 13 samples.

Results

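Genes that carry sugar and small peptides across the small intestinal epithelium, or act on the absorbed sugar, were followed on 13 arrays of mouse crypts and adenomas. There were 7 genes: the transporters Slc5a1, Slc2a2, Slc2a5 and Slc15a1 and the enzymes Khk, Fbp1 and G6pc. A probe set, the group of probes that measures a transcript on the array, was assigned to a gene where its only symbol was that gene. Each of the 7 genes had exactly 1 such probe set, among 19938 genes measured in this way, so no choice between probe sets arose. All mice were described as Apc mutants crossed with transgenic mice expressing FPs. What FP stands for, the Apc allele, the promoter of the transgene and the ages are not given in the labels. Normal small intestinal epithelium next to adenomas was divided into samples with high FP expression (FP-high, n = 4) and low FP expression (FP-low, n = 6), and intestinal adenomas formed the remaining group (n = 3). The normal samples therefore carried the same Apc mutation and transgenes as the adenomas and do not stand for epithelium of wild-type mice. The title of the series asks which signatures of aging precede a tumour, and the labels do not say how the FP level bears on age.

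Glucose and galactose enter the enterocyte, the absorptive cell of the intestine, from the lumen with sodium through SGLT1, the product of Slc5a1. Fructose enters through GLUT5 (Slc2a5), and di- and tripeptides enter with protons through PEPT1 (Slc15a1). Sugars leave towards the blood through GLUT2 (Slc2a2). Inside the cell ketohexokinase (Khk) phosphorylates fructose, fructose-1,6-bisphosphatase (Fbp1) turns the glycolytic intermediate back towards glucose, and the catalytic subunit of glucose-6-phosphatase (G6pc) releases free glucose. In normal tissue these genes belong mainly to the mature enterocytes above the crypt and to the upper small intestine, whereas the crypts sampled here hold stem cells, dividing cells and cells that are beginning to mature.

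Values are the deposited log2 levels, in which 1 unit is a doubling of signal. The median probe set of an array lay at 4.55 to 4.65. The files hold no call of whether a probe set exceeds background, so levels near or below that median may hold little specific signal. One array, FP-high replicate 1, was unlike the rest: its values had an SD of 1.21, against 1.89 to 2.10 on the other 12 arrays, and its median correlation with them was 0.762, while the others correlated among themselves at 0.920 to 0.985. Results that rest on it are therefore given with and without it. The epithelial gene Vil1 had group means of 7.48 to 7.75 and the mean of 12 enterocyte markers ran from 6.60 to 10.6 over the arrays, while the mean of 8 stromal markers stayed at 4.14 to 4.99. Of 7 crypt stem cell markers, 4 had a higher and 3 a lower mean in adenomas than in normal epithelium (median difference 0.05). Lgr5, the 1 marker called, rose by 1.62 ± 0.33 (SE; limma, adjusted p = 0.0417), while Olfm4 was at -2.69 ± 0.84 (adjusted p = 0.227). RNA came from picked crypts, so fewer cells of a type and less RNA per cell cannot be told apart.

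Promoters are shown because some of the 7 genes varied together across arrays, as described further on. The 3 chosen hold a match to a searched motif of a factor known for intestinal or sugar-responsive genes. Each is the 250 bases before the start of the gene in RefSeq (GRCm38.p6), written 5′ to 3′ on the strand of the gene, and capitals mark matches to the searched motifs.
Slc5a1 promoter, chr5:33103969-33104218, plus strand: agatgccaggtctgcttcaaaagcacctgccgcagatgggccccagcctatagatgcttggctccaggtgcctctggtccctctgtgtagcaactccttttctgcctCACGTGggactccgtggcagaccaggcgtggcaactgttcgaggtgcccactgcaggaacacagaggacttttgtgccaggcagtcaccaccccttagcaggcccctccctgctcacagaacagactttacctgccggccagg
Khk promoter, chr5:30921309-30921558, plus strand: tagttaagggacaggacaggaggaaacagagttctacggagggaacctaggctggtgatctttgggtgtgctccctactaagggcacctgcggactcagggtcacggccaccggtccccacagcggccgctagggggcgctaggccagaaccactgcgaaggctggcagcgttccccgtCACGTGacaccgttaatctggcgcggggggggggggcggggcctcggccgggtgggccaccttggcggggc
Fbp1 promoter, chr13:62888283-62888532, minus strand: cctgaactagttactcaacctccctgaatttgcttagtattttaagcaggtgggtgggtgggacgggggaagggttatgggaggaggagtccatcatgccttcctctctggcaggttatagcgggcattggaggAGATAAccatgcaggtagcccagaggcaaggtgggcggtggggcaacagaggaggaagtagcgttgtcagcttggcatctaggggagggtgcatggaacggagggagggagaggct
Slc5a1 and Khk each held CACGTG, the palindromic E-box core bound by factors such as USF and the ChREBP and Mlx pair, at 143 to 138 and 71 to 66 bases before the start. Fbp1 held AGATAA, which GATA factors bind, at 116 to 111 bases. None of these matches overlapped. Over all 32851 RefSeq promoters of this length, searched on both strands like the 7 members, CACGTG was present in 6.02% and AGATAA in 9.99%. CAAAGTC, part of an HNF4 motif, occurred in 3.84% and TTTATG, a CDX core, in 10.8%, and neither was found in the 7 windows. GTTAAT, the core of HNF1 sites, had been planned but was not searched, so its share over all promoters is not given. Its letters stand unmarked in the Khk window and occur in that of G6pc, which is not shown. A match describes letters in a window and not a bound site.

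Slc5a1, the entry route of glucose, ranked at the 89.8th percentile of the tested probe sets by mean level and lay above the array median on every array except FP-high replicate 1. Its log2 level was 4.56, 8.68, 9.43 and 7.63 in FP-high replicates 1 to 4. In FP-low samples it ran from 6.93 to 8.40 with a median of 7.25, and in the adenomas it was 6.36, 6.17 and 6.93. Adenoma replicate 3 lay within the FP-low range, the other 2 adenomas lay below it, and FP-high replicate 1 was the lowest of all 13 arrays. By mean the order was FP-high (7.58 ± 2.14, SD), FP-low (7.48 ± 0.65) and adenoma (6.49 ± 0.40), and limma called no difference between these groups.

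Slc2a2, the route by which sugars leave the cell, was dimmer and less variable. Its level was 4.77, 5.42, 5.77 and 5.17 in FP-high samples, 4.42 to 5.84 with a median of 4.78 in FP-low samples, and 4.22, 4.35 and 4.53 in adenomas. Every adenoma was below every FP-high array, while adenoma replicate 3 was above FP-low replicate 6. Group means were 5.28 ± 0.42, 4.96 ± 0.50 and 4.36 ± 0.15 (SD), and all 3 adenomas lay below their array medians.

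The fructose genes were the transporter Slc2a5 and the kinase Khk. Slc2a5 was at 4.40, 5.83, 5.98 and 4.27 in FP-high samples, at 4.05 to 4.90 with a median of 4.51 in FP-low samples and at 4.35, 3.90 and 4.51 in adenomas. FP-high replicates 2 and 3 alone stood clear of the other 11 arrays, which spread around the array median. Khk was brighter, at 4.98, 7.71, 7.94 and 6.02 in FP-high samples, 5.68 to 7.97 with a median of 6.79 in FP-low samples and 5.25, 5.68 and 5.37 in adenomas. Each adenoma lay below all 6 FP-low arrays, the gap between the highest adenoma and the lowest FP-low array being under 0.01, but above FP-high replicate 1. Means of Khk were 6.66 ± 1.41 (FP-high), 6.76 ± 0.82 (FP-low) and 5.43 ± 0.22 (adenoma).

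Slc15a1, the peptide transporter, ranged most widely, over 5.59 log2 units between its highest and lowest arrays. It was at 5.44, 7.23, 9.70 and 4.49 in FP-high samples and at 4.10 to 6.80 with a median of 6.28 in FP-low samples. The adenomas lay close together at 5.56, 5.48 and 5.42. They fell inside the range of both normal groups, since FP-low replicates 3 and 6 and FP-high replicate 4 were lower. Group means were 6.71 ± 2.29, 5.76 ± 1.16 and 5.49 ± 0.073 (SD).

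Fbp1 was the only member whose adenoma arrays all lay below all 10 normal arrays. It was at 4.81, 5.76, 5.58 and 4.54 in FP-high samples, at 4.30 to 6.61 with a median of 4.99 in FP-low samples and at 3.32, 3.41 and 3.99 in adenomas. Its 2 normal groups had nearly the same mean, 5.17 ± 0.59 and 5.18 ± 0.78, against 3.57 ± 0.36 in adenomas. G6pc, by contrast, was dim and flat. It was at 3.93, 3.81, 3.83 and 3.98 in FP-high samples, 3.68 to 4.76 with a median of 4.12 in FP-low samples and 3.81, 3.78 and 3.86 in adenomas, and its mean ranked at the 31.9th percentile of all tested probe sets. The groups overlapped fully, and FP-low replicate 2 alone exceeded the array median.

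**Figure D1:**
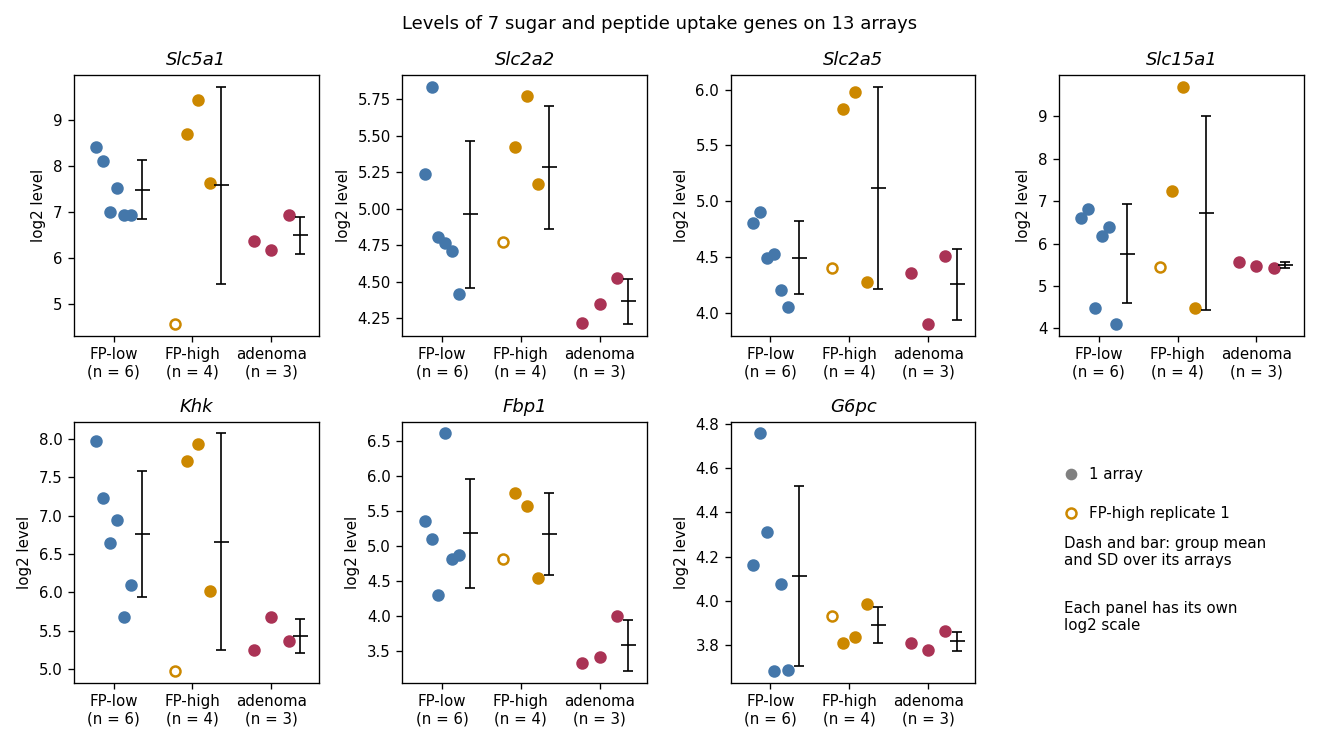
Log2 level of the 7 genes (vertical axes, each with its own scale) in FP-low, FP-high and adenoma arrays (horizontal axis). Each point is 1 array, the open point is FP-high replicate 1, and dash and bar give the group mean and SD; in Fbp1 the 3 adenomas, at 3.32 to 3.99, sit below all normal arrays.

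FP-high and FP-low normal epithelium did not differ past the threshold in any of the 7 genes. With limma, 0 of 7 were called at an adjusted p under 0.05, beside a background of 0% of the 23410 tested probe sets, and 0 of 7 had an unadjusted p under 0.05, beside 12.7% of all probe sets. The median difference, FP-high minus FP-low, was 0.095 over the 7 genes and 0.053 over all probe sets. Slc15a1 had the largest difference, 0.95 ± 0.86 (SE; 95% interval -0.91 to 2.82; limma, adjusted p = 0.551). Slc2a5 was at 0.63 ± 0.34 (-0.10 to 1.36; limma, adjusted p = 0.402) and Slc2a2 at 0.32 ± 0.26. Slc5a1 (0.095 ± 0.73), Khk (-0.098 ± 0.56) and Fbp1 (-0.0049 ± 0.39) lay near 0, and G6pc was at -0.22 ± 0.19. These intervals are wide: that of Slc5a1 ran from -1.49 to 1.68, so a difference of either sign and over a doubling in size is within it.

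The transporters had higher FP-high means when the array that stood apart was left out. Without FP-high replicate 1, Slc5a1 was higher in FP-high samples by 1.10, Slc15a1 by 1.38, Slc2a5 by 0.87 and Slc2a2 by 0.49, and Khk (0.46) and Fbp1 (0.11) turned to the higher side. Slc5a1 and Slc2a5 then had unadjusted p of 0.0231 and 0.0247 by limma (adjusted p = 0.497 and 0.503), which makes 2 of 7 beside 8.53% of all probe sets. None was called, as over all probe sets (0%). Leaving out FP-high replicate 3 moved the values the other way, to -0.041 for Slc15a1 and -0.52 for Slc5a1. Means of other cell markers differed in direction between these groups too, with none called. Over all probe sets 43.7% had a lower mean in FP-high than in FP-low samples on 13 arrays. All 12 enterocyte markers had a higher mean in FP-high samples (list mean 6.60 to 10.6, or 8.18 to 10.6 without replicate 1, against 6.68 to 9.11 in FP-low samples), and so did all 7 T cell markers (4.90 to 6.26, or 5.08 to 6.26, against 4.25 to 5.38). All 9 markers of dividing cells had a lower one (6.00 to 7.54, or 6.47 to 7.54 without replicate 1, against 7.50 to 8.06). The same held on 13 arrays for all 6 Paneth cell markers (median difference -1.32), all 7 goblet cell markers (-0.67) and all 7 crypt stem cell markers (-0.48). Without FP-high replicate 1, the lowest array for each of these 3 lists, the list means of FP-high samples were 10.3 to 11.4 for Paneth, 8.94 to 9.57 for goblet and 6.19 to 6.56 for stem cell markers, and each range overlapped that of FP-low samples (10.6 to 11.6, 8.69 to 9.54 and 6.40 to 6.80). With the enterocyte marker mean subtracted on each array, FP-high minus FP-low was -0.59 for Slc5a1, -0.37 for Slc2a2, -0.064 for Slc2a5 and 0.26 for Slc15a1. This subtraction moves the difference of every probe set by the same amount, so the shift is not particular to these genes. At an unadjusted p under 0.05 by limma, 5.81% of all probe sets were then lower and 0.00427% higher. The part of the other markers in the values of the uptake genes was not tested.

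All 7 genes had a lower mean in adenomas than in normal epithelium, taken as the mean of both normal group means, but none passed the test on the 13 arrays. Among all probe sets 61.9% had a lower mean in adenomas. The median difference was -0.76 over the 7 genes and -0.091 over all probe sets. Limma called 0 of 7, beside 0.91% of all probe sets, most of which were higher in adenomas, with 0.0256% lower. At an unadjusted p under 0.05 there were 3 of 7, all lower, beside 4.59% of all probe sets on the lower side.

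Fbp1 had the largest of these differences. It was lower in adenomas by a log2 difference of -1.60 ± 0.40 (SE; 95% interval -2.47 to -0.74), a 3.03-fold difference (limma, adjusted p = 0.108). All 3 adenomas lay below their array medians, where levels may hold little specific signal, so the size of this fold is uncertain. Groups that did not overlap in the lower direction occurred in 2.04% of all probe sets. The exact two-sided permutation test of its mean over 3 adenomas against 10 normal arrays gave p = 0.0035, the smallest that the 286 possible assignments allow, unadjusted over the 28 tests run on the 7 genes. Against FP-low samples alone the difference was -1.60 ± 0.43 (limma, adjusted p = 0.181) and against FP-high samples alone -1.60 ± 0.46 (adjusted p = 0.163). These comparisons share the adenoma arrays. Without FP-low replicate 4, the array with the highest Fbp1, the difference was -1.46 with an adjusted p of 0.0468 by limma, which made Fbp1 the 1 member called, beside 0.696% of all probe sets. Leaving out any other single array gave no call.

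Among the transporters, Slc2a2 was at -0.76 ± 0.27 (limma, p = 0.0147, adjusted p = 0.317), and the exact permutation test gave p = 0.021. Slc5a1 was at -1.04 ± 0.75 (95% interval -2.66 to 0.58; limma, adjusted p = 0.609), Slc15a1 at -0.75 ± 0.88 (adjusted p = 0.719) and Slc2a5 at -0.55 ± 0.35 (adjusted p = 0.571). Khk was at -1.28 ± 0.58 (limma, p = 0.0451, adjusted p = 0.457), with p = 0.0594 in the exact permutation test. G6pc was at -0.19 ± 0.20. Against FP-low samples 0 of 7 were called beside 0.551% of all probe sets, and Khk, at -1.33 ± 0.62, and Fbp1 did not overlap, beside 5.64% of probe sets with adenomas all lower. Against FP-high samples 0 of 7 were called beside 0.765%, and Fbp1 and Slc2a2, at -0.92 ± 0.31, did not overlap, beside 10.4%.

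Without FP-high replicate 1 the differences between adenoma and normal epithelium grew for each member except G6pc, and 4 of 7 had an unadjusted p under 0.05, all on the lower side, where 9.63% of all probe sets lay. Slc5a1 was then at -1.54 (limma, adjusted p = 0.0815), Khk at -1.56 (0.129), Slc2a2 at -0.84 (0.125) and Fbp1 at -1.66 (0.0654). None was called, beside 2.08% of all probe sets. Against FP-high samples alone Slc5a1 was at -2.09 (limma, adjusted p = 0.0678). When arrays were instead weighted by their quality, limma called Slc5a1 (-1.63, adjusted p = 0.0220), Khk (-1.62, adjusted p = 0.0322) and Fbp1 (-1.77, adjusted p = 0.00974) as lower in adenomas, 3 of 7 beside 4.93% of all probe sets. With these weights Fbp1 was the 1 member called against FP-low samples, beside 3.71%, and Slc5a1 and Fbp1 the 2 called against FP-high samples, beside 2.54%. Quantile normalization of the 12 arrays without FP-high replicate 1, chosen after the data had been seen, gave 1 call, Slc5a1, against normal epithelium (beside 2.58%) and 1, again Slc5a1, against FP-high samples (beside 1.46%).

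**Figure D2:**
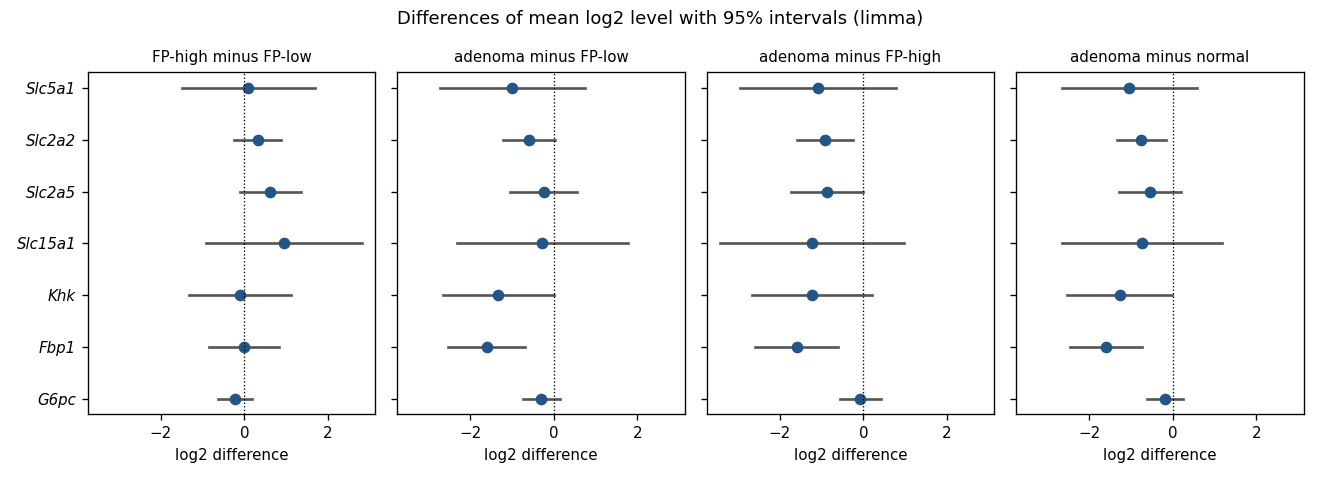
Difference of mean log2 level (horizontal axis) for the 7 genes (vertical axis) in the 4 comparisons, with 95% intervals from limma on 13 arrays. The interval of Fbp1 stays below 0 in each of the 3 comparisons with adenomas, and its adjusted p in them was 0.108 to 0.181.

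Most of the uptake genes were highest on the arrays with the highest enterocyte markers. The mean of 12 markers, such as the villus alkaline phosphatase Alpi, the fatty acid binding protein Fabp1 and the apolipoprotein Apoa4, was highest in FP-high replicates 3 and 2 (10.6 and 9.77) and FP-low replicates 1 and 2 (9.11 and 9.01). The same 4 arrays were the highest 4 for Slc5a1, Slc2a2, Slc2a5, Slc15a1 and Khk, and 3 of them were among the highest 4 for Fbp1 and 2 for G6pc. At the low end were FP-high replicate 1 (6.60), FP-low replicate 6 (6.68) and FP-low replicate 3 (7.09). This order is a description of 13 arrays, noticed after their values were seen, and was given no test.

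Adenomas stood apart from this order for some genes. Of the 12 enterocyte markers, 10 had a lower and 2 a higher mean in adenomas than in normal epithelium (median difference -0.27), with none called. Among all probe sets 61.9% were lower. Against FP-low samples alone 6 markers were higher and 6 lower (median 0.062). The marker means of the adenomas, 7.83, 8.24 and 7.84, lay inside the FP-low range of 6.68 to 9.11 and above FP-low replicates 3 and 6. In those 2 FP-low arrays Fbp1 was at 4.30 and 4.87 and Khk at 6.65 and 6.09, above every adenoma in both genes. Slc15a1 ran the other way, at 4.48 and 4.10 in the same 2 arrays and 5.42 to 5.56 in adenomas. With the array's enterocyte marker mean subtracted from each gene, an alternative chosen after the data had been seen, the difference between adenoma and normal epithelium was -1.13 for Fbp1, -0.80 for Khk, -0.57 for Slc5a1, -0.28 for Slc2a2, -0.28 for Slc15a1 and -0.079 for Slc2a5, while G6pc was at 0.29. None of these was called (limma, adjusted p = 0.983 for Fbp1), beside 0.141% of all probe sets, and the marker mean adds its own spread to them. The subtraction moves the difference of every probe set upward by the same amount. The smaller sizes and the sign of G6pc follow from that and are not particular to these genes.

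**Figure D3:**
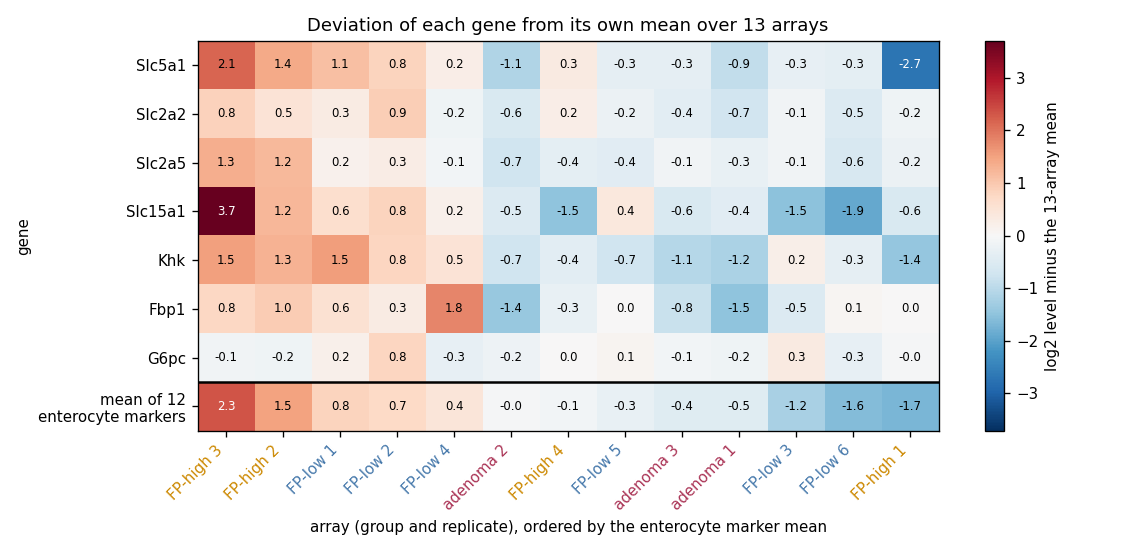
Log2 level minus the gene's own mean over 13 arrays (colour and printed value) for the 7 genes and, in the bottom line, the mean of 12 enterocyte markers, with arrays in order of that mean. The 4 arrays at the left are high in most members. Fbp1 and Khk are low in all 3 adenomas, which rank 6, 9 and 10 of the 13 arrays by the marker mean.

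Other features of the samples moved with the adenoma group. Of 9 markers of the distal small intestine 7 were higher in adenomas, and the 2 ileal bile acid genes Fabp6 and Slc10a2 rose by 6.39 ± 0.85 and 3.19 ± 0.17 (limma, adjusted p = 0.00268 and 2.94e-07). The mean of the distal list was 7.41 to 7.70 in adenomas, 5.65 to 6.55 in FP-low and 4.95 to 7.20 in FP-high samples. That of 10 proximal markers was 5.09 to 5.49, 5.27 to 5.65 and 5.29 to 6.48, with 7 of 10 lower in adenomas and none called. Of 6 Paneth cell markers 5 were lower in adenomas (median difference -1.28), with 3 at an unadjusted p under 0.05 by limma and none called. Their list mean was 8.80 to 10.2 in adenomas, below the 10.6 to 11.6 of FP-low samples, and 7.42 to 11.4 in FP-high samples (10.3 to 11.4 without replicate 1). Of 7 goblet cell markers 6 were higher in adenomas (median 0.41), again with none called. Against FP-low samples alone 4 were higher and 3 lower (median 0.22). The goblet list mean was 8.90 to 9.66 in adenomas and 8.69 to 9.54 in FP-low samples. In FP-high samples it was 5.97 to 9.57, or 8.94 to 9.57 without replicate 1. The part of intestinal position and of these cell types in the values of the uptake genes was not tested. Of 8 stromal markers 4 were higher, and Dcn rose by 2.36 ± 0.45 (limma, adjusted p = 0.0277), with a list mean of 4.30 to 4.99 in adenomas and 4.14 to 4.59 in normal samples. The leukocyte gene Ptprc rose by 0.79 ± 0.16 (adjusted p = 0.0393), while 6 of 7 T cell markers had a lower mean. The female transcript Xist was at 8.88 to 9.71 in adenomas and among normal samples was high only in FP-high replicate 4 (8.64) and FP-low replicate 6 (8.74). Fbp1 was at 4.54 and 4.87 in those 2 normal arrays, above all 3 adenomas. All adenomas thus came from females and most normal samples did not, so sex and adenoma cannot be told apart in these groups. The part of sex in the values of the uptake genes was not tested.

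Lists of genes around the 7 members were likewise without calls. They held 123 further measured genes, of which limma called 0 in each of the 4 comparisons on 13 arrays. In adenomas 83 had a lower and 40 a higher mean (median difference -0.15), where 61.9% of all probe sets had a lower mean. Of the 123 genes, 11 lower and 5 higher ones had an unadjusted p under 0.05. These 16 make up 13%, beside 10.6% over the whole table. In FP-high against FP-low samples 67 were higher and 56 lower, and 8.94% had an unadjusted p under 0.05, beside 12.7% of all.

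Among 20 sugar transporters, the 3 members included, 16 had a lower mean in adenomas (median -0.26), beside 61.9% of all probe sets. The exceptions included Slc2a1, the ubiquitous glucose transporter GLUT1. It was at 5.10 to 5.89 in FP-high samples, 5.87 to 6.35 in FP-low samples and 6.29 to 7.28 in adenomas, so that adenomas exceeded all FP-high arrays and overlapped FP-low arrays. Its difference was 0.93 ± 0.22 (SE; limma, adjusted p = 0.0799), the smallest adjusted p of the lists, and 1.19 ± 0.25 against FP-high samples alone (adjusted p = 0.0508). Slc2a7, a transporter related to GLUT5, was at -0.20 ± 0.13, Slc5a4b, a relative of SGLT1, at -0.83 ± 0.48 and Slc5a9, a sodium-coupled mannose transporter, at -0.12 ± 0.18.

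On the enzyme side, 13 of 15 genes of glucose 6-phosphate handling and gluconeogenesis, Fbp1 and G6pc included, had a lower mean in adenomas (median -0.21), with Pck1, the cytosolic phosphoenolpyruvate carboxykinase, at -0.38 ± 0.17 and the glucose 6-phosphate translocase Slc37a4 at -0.38 ± 0.31. Of 13 fructose and hexose entry enzymes, with Khk, 8 were lower (median -0.074). Among all probe sets 61.9% were lower. The triokinase Tkfc, which acts after Khk in fructose breakdown, was at -0.42 ± 0.21, while hexokinase 2 (Hk2) was at 0.31 ± 0.27. Of 11 genes of glycolysis and its regulators 6 were higher (median 0.19), but without FP-high replicate 1 only 5 were higher and 6 lower (median -0.059). Without FP-high replicate 1 one of them, Pfkfb3, whose product makes an activator of phosphofructokinase, was called as higher in adenomas than in FP-low samples (limma, adjusted p = 0.0304), where 1.58% of all probe sets were called, and it was at an adjusted p of 0.0842 on 13 arrays.

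For peptides, 3 of the 5 measured Slc15 transporters had a lower mean in adenomas. Slc15a2, the high-affinity relative PEPT2, was at -0.66 ± 0.29 and the lysosomal Slc15a4 at -0.14 ± 0.19. Among 13 brush border peptidases, which supply the peptides and amino acids for uptake, 12 had a higher mean in FP-high than in FP-low samples (median 0.64). Over all probe sets 43.7% had a lower mean there. In adenomas 9 of the peptidases had a lower mean (median -0.17), beside 61.9% of all probe sets. Aminopeptidase N (Anpep) was at 0.93 ± 1.25 and dipeptidyl peptidase 4 (Dpp4) at 0.033 ± 0.75 in the first of these comparisons, and at -0.70 ± 1.28 and -0.38 ± 0.77 in the second. Of the 4 disaccharidases, 3 had a higher and 1 a lower mean in FP-high than in FP-low samples, and 1 a higher and 3 a lower one in adenomas than in normal epithelium. Lactase (Lct) was at 1.32 ± 0.63 in FP-high minus FP-low and -1.44 ± 0.65 in adenoma minus normal, sucrase-isomaltase (Sis) at 1.17 ± 0.91 and -0.58 ± 0.93, and trehalase (Treh) at 0.72 ± 0.40 and -0.75 ± 0.41. Maltase-glucoamylase (Mgam) went the other way, at -0.87 ± 0.64 and 0.038 ± 0.65. Without FP-high replicate 1 all 4 had a higher mean in FP-high samples (median 1.30).

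Among 13 genes of the ion gradients and scaffolds that serve uptake, 7 had a lower mean in adenomas (median -0.0039). The sodium-proton exchanger Slc9a3, which restores the proton gradient used by PEPT1, was at 1.08 ± 0.48 (limma, adjusted p = 0.452) and the scaffold Pdzk1 at -0.32 ± 0.51. Of 20 transcription regulators 14 were lower in adenomas (median -0.31), where 61.9% of all probe sets were lower. Mlxipl, which encodes the sugar-responsive factor ChREBP, was at -0.77 ± 0.25 (limma, adjusted p = 0.264), and its target Txnip at 0.23 ± 0.49. The enterocyte factors Hnf4a, Hnf4g, Gata4 and Cdx2 were at -0.64 ± 0.40, -0.53 ± 0.80, -0.30 ± 0.17 and -0.32 ± 0.35. Of 7 sweet sensing genes 6 had a lower mean in adenomas (median -0.079).

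**Figure D4:**
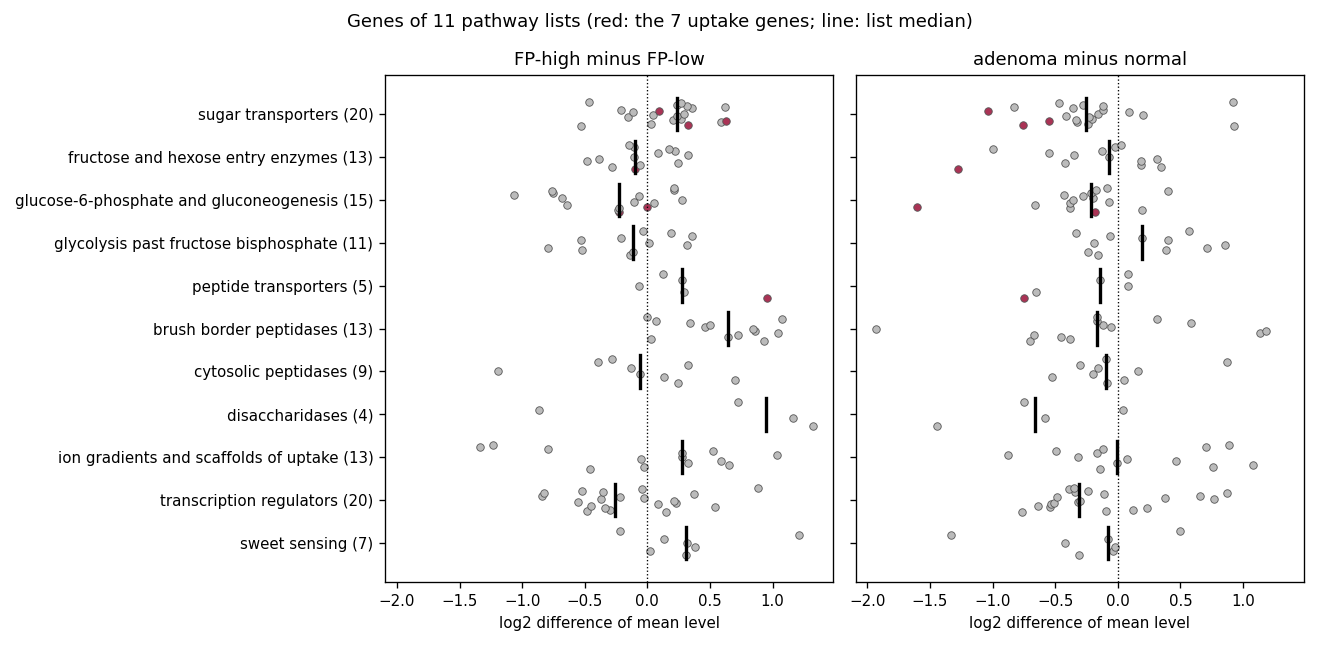
Differences of mean log2 level (horizontal axis) for the genes of 11 lists (vertical axis, with the number of measured genes), FP-high minus FP-low on the left and adenoma minus normal on the right. Red points are the 7 members and black lines the list medians; sugar transporters have a median of -0.26 and disaccharidases one of -0.66 on the right, and no point passed the test.

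Genes with the most similar profiles were sought among 19931 other genes by the root mean square difference of log2 levels over 13 arrays, each gene centred on its own mean. For Slc15a1 these were Lct (0.57), the brush border peptidase Ace (0.63) and Bst1 (0.67), where the profile of Slc15a1 itself has a root mean square of 1.41. Lct is also among the enterocyte and proximal markers. For Slc2a5 they were Treh (0.24), the alanine aminotransferase Gpt (0.24) and Npl (0.31), against 0.60 for its own profile. For Khk they were Mttp (0.41), which loads lipid onto apolipoprotein B, Galm (0.42), the galactose mutarotase, and Prxl2b (0.42), against 1.01. Slc2a2 was closest to Aldh1l1 (0.20), the inositol transporter Slc5a11 (0.21) and the serotonin transporter Slc6a4 (0.24), against 0.50. For Slc5a1 they were Ugt2b34 (0.41), H2-Ab1 (0.42) and St3gal4 (0.43), against 1.20, but 6 other genes came closer than any of these when FP-high replicate 1 was left out. The nearest to Fbp1 were Bdh1 (0.50), Frat2 (0.52) and Gm8995 (0.54), against 0.89, and those of G6pc (Psph, 0.15, Nsun5, 0.16, and Slc24a1, 0.18) describe a nearly flat profile of 0.29. Without FP-high replicate 1, Lct, Treh, Aldh1l1 and Psph were still the nearest genes to Slc15a1, Slc2a5, Slc2a2 and G6pc. Mttp, Galm and Prxl2b then ranked 4, 2 and 9 for Khk, and Bdh1, Frat2 and Gm8995 ranked 9, 11 and 3 for Fbp1, so that other genes came closer to both. Among the members themselves Slc2a2 and Slc2a5 were closest (0.38), followed by Slc2a2 with G6pc (0.43) and Slc5a1 with Khk (0.55).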

How the data were processed

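RNA of crypts picked with glass capillaries of 40 µm diameter was amplified and labelled with NuGEN kits, per the labels' protocols, and hybridised to Affymetrix Mouse Gene 1.0 ST arrays, 1 per sample. The deposited log2 levels of 35556 probe sets were made by the authors with software of the array maker, named as its Command Console in the design text and as its Expression and Transcriptome Analysis Consoles in the submitters' processing notes. No version, background correction or normalization is given in the sources used here. Amplification from so little RNA can distort levels, and the number of arrays limits precision. Whether arrays come from separate animals is not given in the labels. The Xist levels place the adenomas and the normal samples low in Xist in different animals, less surely for FP-high replicate 1 with its narrow spread of values. Within a group it stays unknown whether arrays come from separate animals. A p-value therefore sets a difference against the spread among these arrays, in part perhaps technical, and may not extend to animals.

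Gene names came from the platform annotation: 21789 probe sets had 1 symbol, 1621 several and 12146 none. The 23410 with a symbol were fitted with limma 3.58.1 in R 4.3.3 (lmFit, eBayes, two-sided) on all 13 arrays, with Benjamini-Hochberg adjustment over these probe sets and a call at an adjusted p under 0.05. The fit was tested on simulated data. Exact permutation tests were run on single genes. The members, the lists and the rules for naming genes (all members, a set of list genes, any list gene called, and the 3 genes most like each member) were chosen with earlier results of these data known, and Pfkfb3, Mgam, Olfm4, Vil1 and Xist were named after their values were seen. Arrays with the same replicate number deviated together from their group means between FP-high and adenoma samples (correlations of 0.233, 0.102 and 0.220, all over 0.1) but not throughout with FP-low samples. Arrays of unlike number were not compared in this way. By Xist the same-numbered FP-high and adenoma arrays came from different animals. That is less sure for FP-high replicate 1, whose values had a narrow spread. A replicate block was kept as an alternative. Others were quantile normalization, array weights, filters on dim and unnamed probe sets, another prior and leaving out each array.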

Additional observations from a re-analysis of the deposited data

Results flagged for a closer look

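In 60 pairs of a gene and a normal group, the highest or lowest array was compared with the nearest other one, relative to the range of the group (Dixon's critical values). Of these, 5 passed, where chance gives about 1 in 20, and none was among the 7 uptake genes. Slc2a7 was at 4.56 in FP-low replicate 5, with the nearest FP-low array at 4.32. Slc5a4b was at 7.05 in FP-high replicate 3, with the next at 4.49, in the array that also had the highest Slc5a1 and Slc15a1. In FP-high replicate 1, the array that stood apart in its spread of values, Mlxipl was the highest of its group at 6.34 (nearest 6.04), while Txnip was the lowest at 5.73 (nearest 8.14) and Hnf4g the lowest at 5.35 (nearest 9.84). These patterns were not tested further.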

How the results depend on the processing

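Over 28 member results (7 genes in 4 comparisons) 629 alternatives were run. Direction and side of the threshold were kept in 594, 26 reversed, 9 passed the threshold anew and 0 lost a call, there being none to lose. The causes were not tested. Calls of adenoma against normal numbered 3 with array weights, 1 (Slc5a1, -1.63, adjusted p = 0.0341) with quantile normalization of the 12 arrays without FP-high replicate 1, an alternative chosen after seeing the data, and 0 to 1 when single arrays were left out. Against FP-low samples array weights gave 1 call (Fbp1, -1.73, adjusted p = 0.0155). Against FP-high samples they gave 2 (Slc5a1, -2.09, adjusted p = 0.0362, and Fbp1, -1.81, adjusted p = 0.0471), and the 12-array normalization gave 1 (Slc5a1, -2.19, adjusted p = 0.0273).

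Reversals lay mostly in FP-high minus FP-low. Slc5a1 was at -0.18 with the replicate block, and with the enterocyte marker mean subtracted Slc5a1 was at -0.59, Slc2a2 at -0.37 and Slc2a5 at -0.064. Khk was at 0.0048, 0.41 and 0.54 and Fbp1 at 0.029, 0.081 and 0.15 with quantile normalization, array weights and the 12-array normalization. Without single arrays Slc5a1 ran from -0.52 to 1.10, Khk from -0.52 to 0.46, Fbp1 from -0.20 to 0.28 and Slc15a1 from -0.041 to 1.70. G6pc turned to 0.29 (adenoma minus normal) and 0.75 (adenoma minus FP-high) relative to the enterocyte mean, and to 0.069 in the latter with quantile normalization. Subtracting the enterocyte mean moves every probe set of a comparison by the same amount.

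With the replicate block 0 members were called in any comparison. In adenoma minus FP-high, Fbp1 was at -1.49 (limma, adjusted p = 0.405) and Slc5a1 at -1.12. Replicate numbers are shared there but by Xist do not mark shared animals, less surely for replicate 1. Calls over all probe sets went from 179 to 51 there, and from 213 to 67 for adenoma minus normal. Averaging probe sets gave no other value, as each gene had 1. The filter on dim probe sets removed Slc2a5 and G6pc. A fit on only the groups compared gives no other value for adenoma against normal, which uses all groups. Dim members are limited by signal over background, which the files do not give.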
